A study of Homo sapiens with 8 samples.

Results

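Receptor tyrosine kinases are cell-surface receptors that carry a tyrosine kinase in their cytoplasmic part, and the GFRA proteins are the membrane-anchored co-receptors through which GDNF-type ligands reach the receptor RET. Transcripts of 42 such genes, out of 57996 gene symbols counted, were followed in HAP1 cells with and without BCDIN3D. The genes were chosen by symbol as the receptor families of this class, with the ephrin receptors left out, and all 42 symbols had a row in the count tables. HAP1 is a near-haploid human line derived from a chronic myelogenous leukaemia. Wild-type HAP1 cells and a BCDIN3D knockout clone, clone 11, grew for 48 h in IMDM with 10% serum, antibiotics and glutamine, and each group gave 2 RNA-seq libraries from total RNA. A tag of the labels calls the genotype an shRNA status, while the series' design text speaks of a knock-out. All knockout libraries came from 1 clone, so variation from clone to clone and loss of the gene cannot be told apart. Replicate 1 of each group is dated 6 May and replicate 2 is dated 9 May. The design text calls them biological replicates without naming separate cultures, so the spread behind every p-value here may be technical.

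When a ligand binds, most of these receptors pair, phosphorylate each other on tyrosines and recruit adaptor proteins that switch on the RAS to MAPK and PI3K to AKT cascades. Sprouty proteins, dual-specificity phosphatases and ubiquitin ligases then damp the signal. In blood, KIT and FLT3 act in stem and progenitor cells and CSF1R in macrophages, while RET, the FGF receptors and MET are best known from neural, epithelial and mesenchymal tissue.

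The libraries held 20065041 to 24415272 counts, so that 1 count was worth 0.0405 to 0.0503 CPM (counts scaled by TMM to a common library total). BCDIN3D, the targeted gene, stood at 7.40 and 4.90 CPM in wild-type replicates 1 and 2 and at 1.56 and 2.71 CPM in knockout replicates 1 and 2. Of 16 blood cell markers 4 passed the count filter, GATA2, TAL1, RUNX1 and LYL1, and their list summed to 89.4 and 94.6 CPM in wild-type and to 103 and 105 CPM in knockout. TAL1 was called higher (0.32 ± 0.08, adjusted p = 0.00564). The defining blood markers PTPRC (CD45), CD34 and SPI1 had 0 to 4 counts per library. Of 7 endothelial markers 1 passed the filter, and PECAM1 had 0 counts in every library. The epithelial list of 8 genes summed to 83.0 and 75.7 CPM in wild-type and to 61.9 and 52.9 CPM in knockout. Most of each sum was KRT18, with 58.9 and 53.1 CPM in wild-type and 50.7 and 41.6 CPM in knockout. All 4 of its tested genes, KRT8, KRT18, ESRP1 and EPCAM, were lower (1 with DESeq2, KRT8), and EPCAM was under 1 CPM in every library. The other genes of the list were near 0 in both groups: CDH1 had 0 to 1 counts per library, GRHL2 0, KRT19 0 to 4 and CLDN4 3 to 7. Of 10 fibroblast and mesenchymal markers 6 were tested: TWIST2 (3.12 ± 0.35, adjusted p = 1.63e-09) and VIM (0.28 ± 0.06, adjusted p = 0.000847) were higher and PRRX1 (-5.05 ± 0.54, adjusted p = 3.84e-10) was lower. That list summed to 355 and 352 CPM in wild-type and to 421 and 400.1 CPM in knockout. Most of each sum was VIM, with 272 and 262 CPM in wild-type and 336 and 311 CPM in knockout. The other tested genes of the list, FN1, COL1A1 and TWIST1, were not called. Of 8 neural and neural crest markers 3 were tested and TUBB3 was lower (-0.27 ± 0.06, adjusted p = 0.00208), while the list summed to 570.4 and 677 CPM against 586 and 657 CPM. Any part of these marker shifts in the receptor results was not tested.

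Wild-type HAP1 cells expressed 24 of the 42 genes, taking as expressed a gene that reached 1 CPM in both libraries of a group. Every FGF receptor and every TAM receptor was among them, with 3 of 4 ERBB receptors, 2 of 3 VEGF receptors and 2 of 5 receptors of the KIT and PDGF group. Knockout cells also expressed 24, of which 23 were shared. KIT left the set, because knockout replicate 1 fell under 1 CPM, and GFRA1 entered it. The TIE and TRK receptors (TEK, TIE1, NTRK2, NTRK3) reached the threshold in neither group. Transcript lengths were not used here, so CPM of different genes are not ranked against each other, and the plot of levels by library orders the genes by wild-type CPM for display alone.

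**Figure D1:**
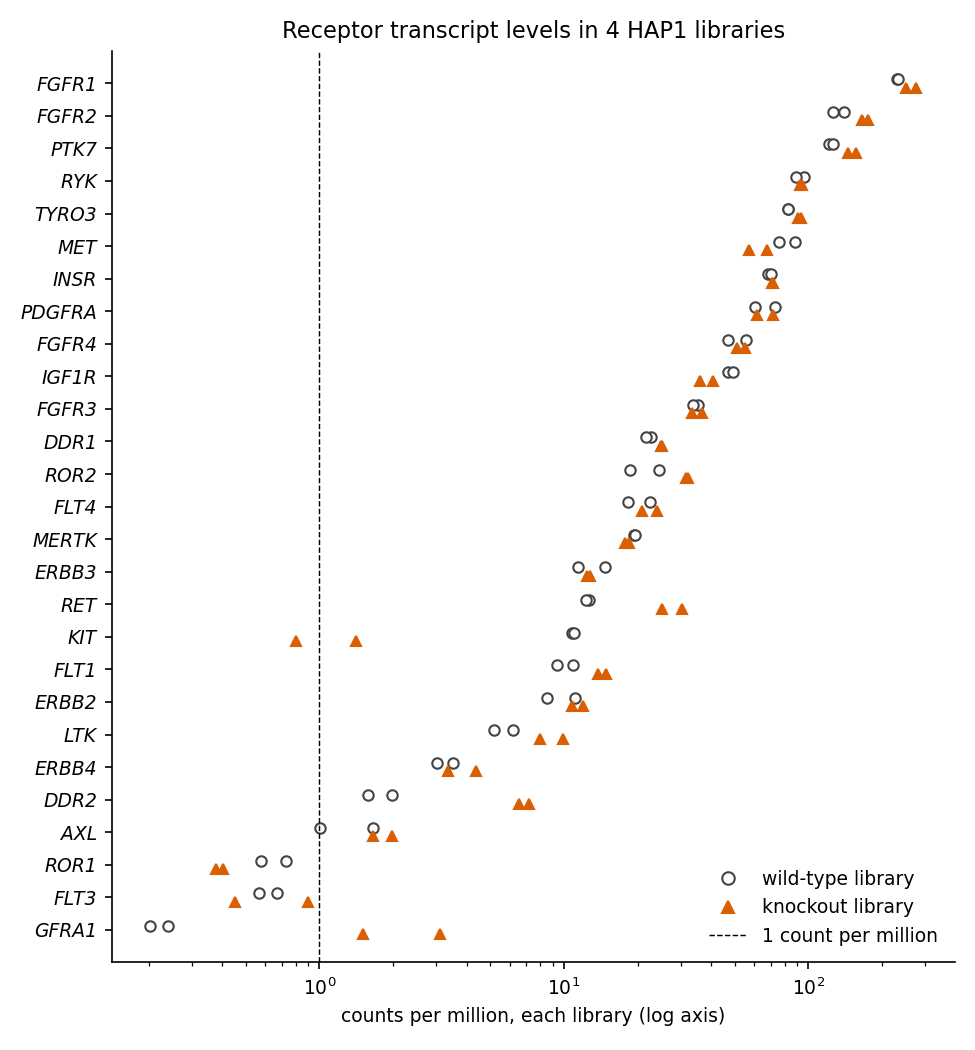
CPM of the 27 receptor genes that passed the count filter, on a log axis, with 1 open circle per wild-type library and 1 triangle per knockout library. KIT (10.8 and 11.0 CPM against 0.804 and 1.41 CPM) and GFRA1 (0.240 and 0.202 CPM against 3.12 and 1.51 CPM) are the genes with libraries on both sides of the dashed line at 1 CPM.

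Of the 42 genes 27 passed the filter on low counts and were tested against 16233 genes in all. Knockout cells had higher transcript levels of 9 of them (GFRA1, DDR2, RET, LTK, ROR2, FLT1, FGFR2, PTK7 and FGFR1) and lower levels of 3 (KIT, MET and IGF1R), at an adjusted p under 0.05 in edgeR's quasi-likelihood test. Over all tested genes the background was 6.56% called in either direction, 3.06% higher and 3.5% lower, against 44.4% of the tested receptors. Passing the filter can itself depend on the higher group, so this share describes 27 genes and not the 42. GFRA1 passed through the knockout group alone. The median log2 fold change was 0.16 over the tested receptors and 0.00 over all tested genes, and the median size of the change was 0.23 and 0.12. Each of the 12 called genes had groups that did not overlap, which entails the same direction at both dates. The test itself favours such genes, so this adds no separate support to the calls. Over all tested genes 45.3% had groups that did not overlap, against 17 of the 27 receptors. Of the 12, KIT, GFRA1, DDR2 and RET, or 4, changed by 2-fold or more, beside 37.2% of all called genes.

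**Figure D2:**
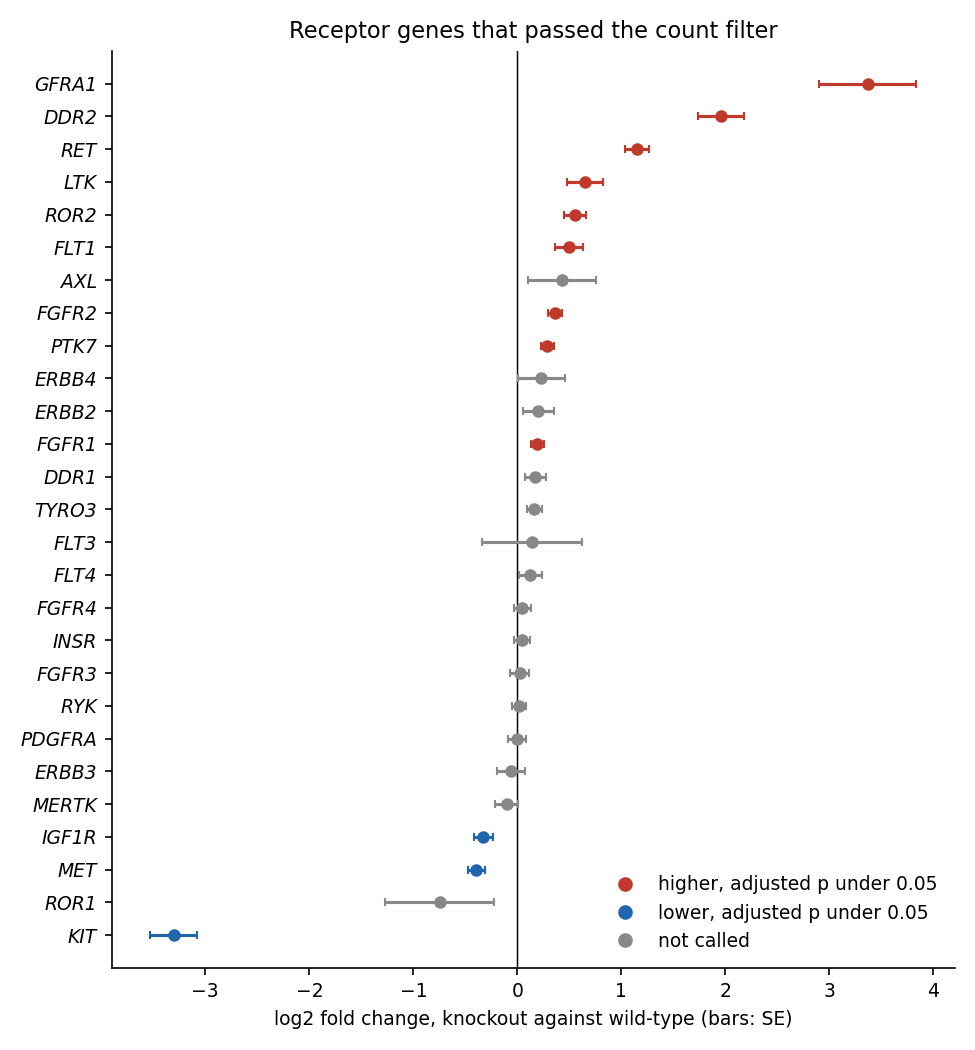
Log2 fold change of the 27 tested receptor genes, knockout against wild-type, with bars of 1 SE and colour for the call at an adjusted p under 0.05. GFRA1 at 3.37 and KIT at -3.30 are the extremes, and 15 genes in grey were not called.

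KIT, the receptor for stem cell factor, had the largest fall. It stood at 10.8 and 11.0 CPM in wild-type replicates 1 and 2 (225 and 271 counts) and at 0.804 and 1.41 CPM in knockout replicates 1 and 2 (17 and 28 counts). Both knockout libraries lay far below both wild-type libraries, although they differed from each other by more than the wild-type libraries did. The log2 fold change was -3.30 ± 0.23 (SE, adjusted p = 2.61e-16), a 9.88-fold lower level. KITLG, which encodes stem cell factor, was lower as well: 40.9 and 35.1 CPM in wild-type against 20.7 and 21.1 CPM in knockout, a log2 fold change of -0.86 ± 0.10 (adjusted p = 3.65e-09). Receptor and ligand were thus both reduced, the ligand by 1.82-fold.

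The relatives of KIT gave no call. PDGFRA, the receptor for PDGF-A and PDGF-C, lies 360 kb from KIT on chromosome 4 and had 60.6 and 72.9 CPM in wild-type and 61.8 and 71.5 CPM in knockout (-0.01 ± 0.09, adjusted p = 0.990). In PDGFRA the later date was higher in both groups. KDR, the main VEGF receptor of endothelium, lies 338 kb on the other side of KIT and had 1 count in wild-type replicate 1 and 0 in the other libraries. FLT3, a receptor of early blood progenitors, had 14 counts in each wild-type library and 19 and 9 in the knockout libraries (0.14 ± 0.48, adjusted p = 0.941). CSF1R, the macrophage growth factor receptor, had 11 and 6 counts against 4 and 8. PDGFRB, its neighbour on chromosome 5, had 5 and 10 counts against 13 and 6. None of these low values separates the groups.

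RET and its co-receptor GFRA1 both rose. RET had 12.7 and 12.3 CPM in wild-type and 25.1 and 30.4 CPM in knockout, a log2 fold change of 1.15 ± 0.12 (adjusted p = 7.64e-11) or 2.22-fold. GFRA1, which presents GDNF to RET, had 5 counts in each wild-type library against 66 and 30 in the knockout libraries, or 0.240 and 0.202 CPM against 3.12 and 1.51 CPM. Its log2 fold change was 3.37 ± 0.47 (adjusted p = 4.34e-07). With wild-type counts below the filter's minimum of 10, GFRA1 entered the test through its knockout libraries alone. Knockout replicate 1 lay well above knockout replicate 2, and both lay above the wild-type libraries. The size of the change rests on low wild-type counts, and the log2 fold change was 2.75 without knockout replicate 1. The other co-receptors were near 0: GFRA2, which binds neurturin, had 3 and 4 counts against 0 and 1, and GFRA3, which binds artemin, had 0 counts in every library, where 3 counts would be 0.121 to 0.151 CPM. GDNF itself had 0 counts in 3 libraries and 4 counts in knockout replicate 2. NRTN, which encodes neurturin, had 5.19 and 5.02 CPM in wild-type and 5.25 and 5.93 CPM in knockout and was not called.

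DDR2, a receptor activated by fibrillar collagen, went from 1.97 and 1.58 CPM in wild-type (41 and 39 counts) to 7.19 and 6.54 CPM in knockout (152 and 130 counts). The replicates lay close together in each group. The log2 fold change was 1.96 ± 0.22 (adjusted p = 2.19e-09), or 3.89-fold. DDR1, its relative in epithelia, had 22.7 and 21.7 CPM in wild-type and 25.2 and 24.9 CPM in knockout (0.17 ± 0.10, adjusted p = 0.428). It did not pass the test although its groups did not overlap.

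**Figure D3:**
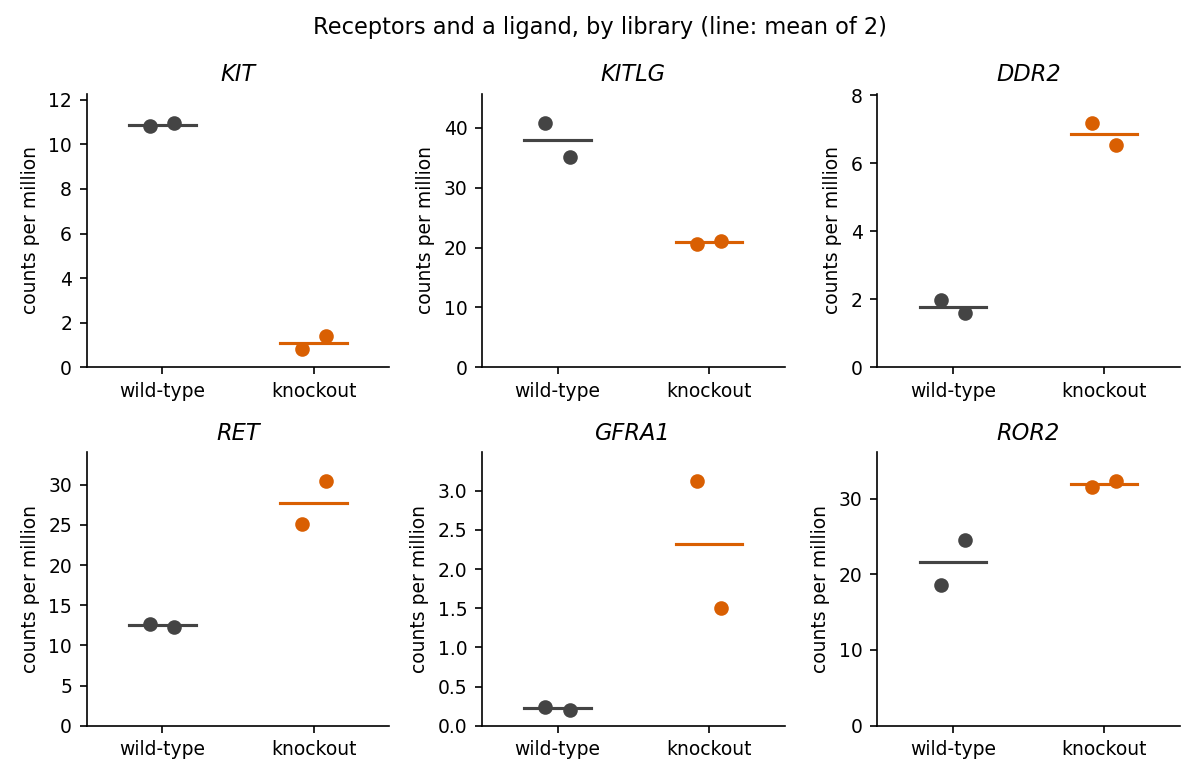
CPM of KIT, its ligand gene KITLG, DDR2, RET, GFRA1 and ROR2 in each library, with a line at the mean of 2 libraries and axes from 0. KIT and KITLG are lower in both knockout libraries, and the other 4 genes are higher in both, with GFRA1 the most spread (3.12 and 1.51 CPM).

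The sequences around the annotated starts of the 4 genes that changed by 2-fold or more are shown because these genes carry the largest receptor changes and because their starts differ in letter content. Each is the stretch from 250 bases before to 50 bases after the RefSeq start farthest upstream, 5′ to 3′ on the gene's strand, in GRCh38.p14, with capitals on GGGCGG or its reverse complement CCGCCC (GC box letters). RefSeq lists 1 start for KIT, 2 for RET, 3 for DDR2 and 4 for GFRA1, and which of them HAP1 cells use was not tested. The stretches lie at chr4:54657707-54658006 (plus strand) for KIT, chr10:43076819-43077118 (plus) for RET, chr1:162630613-162630912 (plus) for DDR2 and chr10:116274656-116274955 (minus) for GFRA1.
KIT: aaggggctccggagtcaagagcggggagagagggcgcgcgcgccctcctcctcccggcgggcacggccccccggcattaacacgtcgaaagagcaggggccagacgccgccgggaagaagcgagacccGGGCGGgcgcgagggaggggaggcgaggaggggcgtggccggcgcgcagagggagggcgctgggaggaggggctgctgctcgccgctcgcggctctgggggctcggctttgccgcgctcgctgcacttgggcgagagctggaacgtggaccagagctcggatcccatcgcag
RET: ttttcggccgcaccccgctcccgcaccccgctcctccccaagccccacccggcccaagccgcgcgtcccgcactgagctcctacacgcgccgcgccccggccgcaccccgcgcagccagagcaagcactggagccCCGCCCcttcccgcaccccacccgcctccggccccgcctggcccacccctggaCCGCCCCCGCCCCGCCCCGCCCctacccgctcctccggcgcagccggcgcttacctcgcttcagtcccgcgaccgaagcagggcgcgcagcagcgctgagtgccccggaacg
DDR2: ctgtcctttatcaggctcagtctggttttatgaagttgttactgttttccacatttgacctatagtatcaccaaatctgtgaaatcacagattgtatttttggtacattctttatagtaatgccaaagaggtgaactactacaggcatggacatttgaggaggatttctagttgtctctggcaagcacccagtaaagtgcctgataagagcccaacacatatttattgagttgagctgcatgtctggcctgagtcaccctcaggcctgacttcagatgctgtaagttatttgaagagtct
GFRA1: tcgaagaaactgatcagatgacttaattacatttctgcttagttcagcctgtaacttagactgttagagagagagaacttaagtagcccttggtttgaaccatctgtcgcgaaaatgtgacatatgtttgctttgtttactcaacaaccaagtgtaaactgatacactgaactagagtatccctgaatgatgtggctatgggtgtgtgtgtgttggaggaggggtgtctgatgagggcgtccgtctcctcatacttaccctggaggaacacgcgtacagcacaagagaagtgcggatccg
The KIT stretch holds 38 CG dinucleotides and 1 match to the GC box letters, and the RET stretch 41 and 5 overlapping or separate matches. The GFRA1 stretch holds 9 CG and the DDR2 stretch 0, and neither holds the GC box letters. Of all 27305 genes with such a stretch, 44.5% hold the GC box letters on either strand, and the median CG count is 13. The table gave a stretch for 37 of the 42 receptors. The median CG count was 33 (range 0 to 55) in the 21 receptors expressed in wild-type and 16.5 (range 1 to 34) in the other 16. GC box letters stood in 16 of the 21 and in 9 of the 16. These are counts of letters and show no site in use.

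Among the FGF receptors, FGFR2 and FGFR1 rose and FGFR3 and FGFR4 did not pass the test. FGFR2 had 139 and 126 CPM in wild-type and 165 and 175 CPM in knockout (0.36 ± 0.07, adjusted p = 6.43e-05), a rise of 1.29-fold. FGFR1 had 229.6 and 232 CPM against 251 and 276 CPM (0.19 ± 0.06, adjusted p = 0.0422), a rise of 1.14-fold that only just passed. With DESeq2 its adjusted p was 0.166 and with scaling by library size alone 0.101, and the call was also lost without wild-type replicate 1 (adjusted p = 0.366), wild-type replicate 2 (adjusted p = 0.266) or knockout replicate 2 (adjusted p = 0.481). FGFR3 (35.3 and 33.6 CPM against 36.6 and 33.4 CPM) and FGFR4 (46.9 and 55.4 CPM against 51.1 and 54.9 CPM) overlapped between groups. FGFR2 has epithelial and mesenchymal splice forms, which counts per gene do not separate. ESRP1, a splicing factor known to favour the epithelial form, had 4.81 and 6.36 CPM in wild-type and 3.50 and 2.31 CPM in knockout (-0.94 ± 0.22, adjusted p = 0.00284), a call lost with DESeq2 (adjusted p = 0.0718). Of 18 FGF ligand genes 7 were tested and edgeR called 0, with 0 also at an unadjusted p under 0.05, by DESeq2 and in the blocked fit. FGF2, a broadly acting FGF, had 37.6 and 31.7 CPM in wild-type and 30.4 and 30.5 CPM in knockout (-0.18 ± 0.10, adjusted p = 0.335).

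Of the VEGF receptors FLT1, a high-affinity receptor for VEGF-A and placental growth factor, had 9.32 and 10.9 CPM in wild-type and 14.8 and 13.8 CPM in knockout (0.50 ± 0.14, adjusted p = 0.0156). The rise was 1.41-fold. The call was lost with DESeq2 (adjusted p = 0.136), without wild-type replicate 1 (adjusted p = 0.271) and without knockout replicate 1 (adjusted p = 0.0923). FLT4, the receptor for VEGF-C, had 18.4 and 22.6 CPM in wild-type and 20.86 and 23.98 CPM in knockout, with overlapping groups (0.13 ± 0.11, adjusted p = 0.670). Of the ligands of FLT1, VEGFA had 48.4 and 48.5 CPM against 50.2 and 45.0 CPM, and VEGFB 31.4 and 31.1 CPM against 36.0 and 38.9 CPM (0.26 ± 0.09, adjusted p = 0.0837, and 0.0305 with the date as a block). PGF had 3.89 and 4.98 CPM against 5.15 and 4.88 CPM and was not called. The VEGF co-receptor gene NRP2 was lower, at 2.50 and 3.73 CPM in wild-type and 1.23 and 1.06 CPM in knockout (-1.45 ± 0.30, adjusted p = 0.000452), while NRP1 had 69.1 and 62.2 CPM against 66.3 and 62.4 CPM.

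Among receptors linked to Wnt signalling 2 rose. ROR2, a receptor for WNT5A, had 18.6 and 24.6 CPM in wild-type and 31.5 and 32.3 CPM in knockout (0.56 ± 0.11, adjusted p = 0.000278), or 1.47-fold. PTK7, a pseudokinase of planar cell polarity, had 121 and 126 CPM against 145 and 157 CPM (0.29 ± 0.06, adjusted p = 0.00173). Both calls were lost without wild-type replicate 1 (adjusted p = 0.0851 for ROR2 and 0.101 for PTK7). RYK, a further Wnt-binding pseudokinase, had 95.6 and 89.1 CPM against 93.8 and 92.7 CPM (0.01 ± 0.07, adjusted p = 0.961). ROR1 was low, with 12 and 18 counts against 8 and 8 (-0.75 ± 0.52, adjusted p = 0.537). MUSK, the agrin-responsive receptor of the neuromuscular junction, had 0 to 2 counts per library. WNT5A had 20.1 and 22.4 CPM in wild-type and 21.4 and 21.1 CPM in knockout, close to equal.

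LTK, a small relative of ALK, had 6.20 and 5.18 CPM in wild-type and 7.95 and 9.91 CPM in knockout (0.65 ± 0.17, adjusted p = 0.00940), or 1.57-fold. The call was lost with DESeq2 (adjusted p = 0.126), without wild-type replicate 2 (adjusted p = 0.186) and without knockout replicate 2 (adjusted p = 0.277). ALK had 4 and 4 counts against 2 and 2, and ROS1 0 to 1 counts per library. The ligand genes ALKAL1 and ALKAL2, listed in the files as FAM150A and FAM150B, had 1 to 7 and 4 to 13 counts per library.

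MET and IGF1R fell modestly. MET, the receptor for hepatocyte growth factor, had 75.5 and 87.8 CPM in wild-type and 67.3 and 56.9 CPM in knockout (-0.39 ± 0.08, adjusted p = 0.00105), a 1.31-fold lower level. The log2 ratio of knockout to wild-type was -0.16 at the earlier date and -0.63 at the later date, and the call was lost without wild-type replicate 2 (adjusted p = 0.141). IGF1R, the receptor for insulin-like growth factors, had 46.9 and 49.0 CPM against 40.6 and 35.9 CPM (-0.33 ± 0.09, adjusted p = 0.0104), 1.25-fold lower. That call was lost with DESeq2 (adjusted p = 0.0637), without wild-type replicate 2 (adjusted p = 0.182) and without knockout replicate 2 (adjusted p = 0.218). Their ligand genes were near 0: HGF had 6 and 3 counts against 0 and 0, IGF1 1 and 2 against 0 and 0, and IGF2 4 and 11 against 5 and 5. INSR, the insulin receptor, had 68.2 and 69.9 CPM against 71.6 and 71.0 CPM (0.05 ± 0.08, adjusted p = 0.849). INSRR, its pH-sensing relative, had 2 to 7 counts per library, and MST1R, the relative of MET, 0 to 8.

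The ERBB and TAM receptors gave 0 calls by edgeR, DESeq2 or the blocked fit, and TYRO3 was the member with an unadjusted p under 0.05. ERBB2, which has no ligand of its own, had 8.51 and 11.1 CPM in wild-type and 10.7 and 11.9 CPM in knockout (0.20 ± 0.15, adjusted p = 0.559). ERBB3, a neuregulin receptor with a weak kinase, had 11.4 and 14.7 CPM against 12.8 and 12.4 CPM, and ERBB4 3.03 and 3.52 CPM against 3.36 and 4.37 CPM. EGFR was nearly silent, with 4 counts in each of the 4 libraries. NRG1, a ligand of ERBB3 and ERBB4, went from 26 and 33 counts in wild-type to 3 and 1 in knockout (-3.66 ± 0.61, adjusted p = 1.65e-05), and NRG2 from 38 and 59 to 27 and 40 with no call. Of the TAM receptors, which bind GAS6 and protein S, TYRO3 had 82.1 and 82.3 CPM in wild-type and 90.6 and 93.2 CPM in knockout (0.16 ± 0.07, adjusted p = 0.214). MERTK had 19.3 and 19.6 CPM against 18.4 and 17.7 CPM (-0.10 ± 0.11, adjusted p = 0.746), and AXL 1.01 and 1.66 CPM against 1.99 and 1.66 CPM (0.43 ± 0.33, adjusted p = 0.583). The protein S gene PROS1 was lower (-0.58 ± 0.18, adjusted p = 0.0387), a call lost with DESeq2 (adjusted p = 0.265). GAS6 was not called. A missed threshold does not show that these receptors were equal: 13 expressed receptors were not called, with log2 fold changes from -0.10 to 0.43.

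The 15 genes that did not pass the filter had 0 to 13 counts per library and at most 0.615 CPM. Those not yet given are TEK and TIE1, the angiopoietin receptor and its partner, with 0 to 3 counts each, NTRK2, the BDNF receptor, with 4 counts in wild-type replicate 2 and 0 elsewhere, and NTRK3, the NT-3 receptor, with 2 and 2 counts against 3 and 4.

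Ligand genes were expressed beside expressed and unexpressed receptors. For 29 receptors a list of known ligands was used, and 14 of these receptors were expressed in wild-type. The FGF receptors, ERBB2, RET, PTK7, RYK, DDR1 and DDR2 were expressed but had no such list, so these counts leave them out. Of the FGF ligand genes 3 reached the threshold in wild-type. For 10 of the 14 at least 1 ligand gene was also expressed: KIT, PDGFRA, FLT1, FLT4, ERBB3, ERBB4, AXL, TYRO3, MERTK and ROR2. For the other 4, IGF1R, INSR, MET and LTK, 0 listed ligand genes reached the threshold. Of the 15 receptors not expressed in wild-type, 8 also had an expressed ligand gene: CSF1R, KDR, TEK, EGFR, MST1R, GFRA2, ROR1 and MUSK. In knockout GFRA1 joined the receptors without an expressed ligand gene.

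Among 203 other genes of the pathway, in 14 lists of ligands, co-receptors, adaptors, cascade members, inhibitors and targets, 153 were tested. In knockout 8 were higher and 8 lower, or 10.5%, beside 6.56% of all tested genes. The median log2 fold change was 0.02. Of 40 adaptor genes, 34 tested, 2 were higher and 0 lower: IRS1, which docks to the insulin and IGF receptors (0.61 ± 0.13, adjusted p = 0.000939), and DOK1 (0.34 ± 0.11, adjusted p = 0.0416). Of 20 PI3K to AKT genes, 18 tested, the catalytic subunit gene PIK3CD was higher (0.68 ± 0.12, adjusted p = 4.29e-05) and PIK3CB lower (-0.47 ± 0.14, adjusted p = 0.0334). Of the 19 RAS to MAPK genes reported here, all tested, edgeR and DESeq2 called 0, and 1 had an unadjusted p under 0.05 in edgeR. Most genes of both cascades thus missed the threshold.

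Inhibitors and targets moved in both directions. Of 23 tested feedback inhibitors the ERK phosphatase gene DUSP4 was higher (0.92 ± 0.22), and SOCS2 (-0.54 ± 0.09, adjusted p = 1.08e-05) and LRIG3 (-0.39 ± 0.11) were lower. Of 12 tested ERK targets ETV1 was higher (0.63 ± 0.19) and CCND1, the gene of cyclin D1, lower (-0.89 ± 0.26). Of the other ligands and co-receptors, AGRN (0.30 ± 0.07), MDK (0.22 ± 0.06) and SDC2 (0.25 ± 0.07) were higher. With DESeq2 4 pathway genes were higher and 4 lower, and the calls of PROS1, DOK1, PIK3CB, DUSP4, LRIG3, ETV1, CCND1 and SDC2 were lost. KITLG, IRS1, PIK3CD and SOCS2 were called in 10 of 10 alternative analyses, NRG1 in each of the 9 that tested it, and the other 11 in 3 to 9 of 10. In a fit blocked by date, 16 rose and 11 fell. The genes called there and not in the reported fit were VEGFB, GRB10, PLCG1, MAP2K2, PIK3R3, AKT1, AKT2 and EPHA2 (higher) and PDGFA, STAM2 and SPRED2 (lower), chosen after their values were seen.

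The next tested genes along the chromosomes gave 1 call. Of the 24 nearest tested neighbours of the 12 called receptors, edgeR called 0 in the same direction (1 at an unadjusted p under 0.05, ARRDC4 before IGF1R) and 1 in the opposite direction. The gene called was UAP1, before DDR2 on chromosome 1, which was lower (-0.24 ± 0.08, adjusted p = 0.0457, called in 5 of 10 alternative analyses). HSD17B7, on the other side of DDR2, had a log2 fold change of 0.10 ± 0.10. Beside KIT (chromosome 4, 54657957 to 54740715 in GRCh38), SRD5A3 had a log2 fold change of -0.12 ± 0.12. RET (chromosome 10, 43077069 to 43130351) and GFRA1 (chromosome 10, 116056925 to 116274705) lie on the same chromosome but far apart, and their neighbours BMS1 (-0.13 ± 0.07), CSGALNACT2 (0.01 ± 0.12), ATRNL1 (-0.37 ± 0.34) and PNLIPRP1 (0.14 ± 0.60) were not called. The 16 neighbours of the 8 called receptors that changed by less than 2-fold had log2 fold changes from -0.34 to 0.41, and 0 were called. DDR2 spans 162630863 to 162787405 on chromosome 1. LTK and TYRO3 lie 45.4 kb apart on chromosome 15, and LTK alone was called. Opposite-strand transcripts overlap FLT1, IGF1R and MET in RefSeq. Further RefSeq genes, whose strand was not available here, overlap FGFR1, GFRA1, ROR2 and DDR2. The libraries were stranded, but whether the counting used strand is not given in the sources used here, so reads of such partners could be included. COMETT, the partner of MET, had 0 counts in every library.

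Across the alternative analyses 5 of the 12 calls held in 10 of 10: KIT, GFRA1, DDR2, RET and FGFR2. FGFR1 held in 4 of 10, FLT1, IGF1R and LTK in 7 of 10, and MET, ROR2 and PTK7 in 9 of 10. The direction of all 12 was the same in these 10 analyses. DESeq2 kept 8 of the 12, beside a background of 3.61% called by it, and the block on date kept all 12, beside 9.55%.

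**Figure D4:**
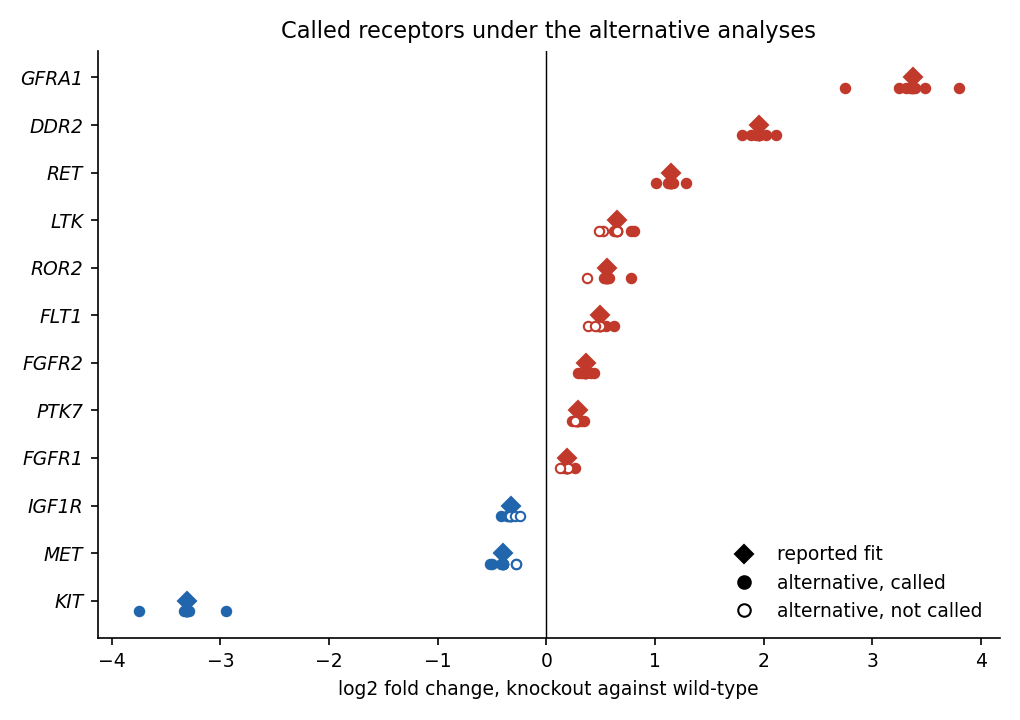
Log2 fold change of the 12 called receptor genes in the reported fit (diamond) and in 10 alternative analyses (circles, filled where the adjusted p stayed under 0.05). GFRA1 ranges from 2.75 to 3.79 and KIT from -3.75 to -2.95 with every circle filled. Open circles occur for FGFR1, FLT1, IGF1R, LTK, MET, ROR2 and PTK7.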

How the data were processed

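RNA-seq of 2 wild-type and 2 knockout HAP1 libraries was used. The small RNA libraries hold no receptor gene and were not analysed here. The values the authors deposited are counts without normalisation: for every library, a whole number of reads for each of 57996 gene symbols. Per the labels' protocols, RNA was extracted with a Norgen kit and made into TruSeq Stranded Total RNA libraries. Per the submitters' processing notes, STAR, featureCounts, Subread, cutadapt, SAMtools and FastQC were used with hg38. Their roles and versions, the gene annotation and any use of strand in counting were not given in the sources used here.

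The analysis used edgeR 4.0.16 in R 4.3.3: filterByExpr (minimum count 10), TMM scaling, and a robust quasi-likelihood F test of knockout against wild-type over 16233 genes, with Benjamini-Hochberg adjustment over all of them and a threshold of 0.05. All adjusted p-values are from this fit unless another tool is named. The SE is the log2 fold change divided by the square root of F. The procedure was tested on simulated data. The alternatives were DESeq2 1.42.0, scaling by library size or RLE, no filter or a minimum count of 30, the date as a block, and leaving out each library. Leaving out a library leaves 1 sample in that group, which is assumed to vary like the other group. Same-numbered libraries share a date in the labels, which pairs them; the reported fit has no term for date, and the block is an alternative. Their deviations from the group means correlated by 0.0825.

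Replicates were not duplicates, since their chi-square per degree of freedom was 3.62 in wild-type and 4.37 in knockout. The biological coefficient of variation was 5.53%. Counts carry no molecular identifiers, so limits from counts cover counting error only. The receptors, the pathway lists and the tests were chosen with earlier results of these data known. One item of the pathway lists is not reported here and is left out of their counts. The named genes are all 42 receptors, every called gene of each pathway list, the listed ligands of called receptors and nearest tested neighbours of the 4 receptors changed by 2-fold or more, other neighbours being given by their range; other ligands, co-receptors and marker genes were added after their values were seen. Positions and promoter stretches come from RefSeq tables of GRCh38.p14, matched by symbol.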

Additional observations from a re-analysis of the deposited data

How the results depend on the processing

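Depth limits what can be said of the receptors below 1 CPM. Of the receptors 9 rose and 3 fell, against 6 and 2 by DESeq2 and 9 and 3 with the date as a replicate block, which changed no receptor call. Over all tested genes the 497 rises and 568 falls became 255 and 331 by DESeq2, and 767 and 784 with the block. Of the pathway genes the 8 rises and 8 falls became 4 and 4 by DESeq2, and 16 and 11 with the block. The number of receptors expressed in wild-type was 24, and 22 to 26 at other thresholds.

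Leaving out each library in turn, which also leaves fewer samples, gave 5 to 8 receptors higher and 1 to 3 lower. The lowest of these came without wild-type replicate 1 (5 higher) and without wild-type replicate 2 (1 lower, KIT). The same fits gave 240 to 684 of all tested genes higher and 340 to 705 lower. The lowest there came without wild-type replicate 1 (240) and wild-type replicate 2 (340). Among the pathway genes they gave 4 to 13 higher and 4 to 8 lower. The highest there came without knockout replicate 1 (13 higher).

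Of the 15 tested receptors that were not called, 7 changed sign when a library was left out and 8 did not. The log2 fold changes of the 7 then ran from -0.13 to 0.14 for PDGFRA, -0.44 to 0.54 for FLT3, -0.012 to 0.289 for FLT4, -0.044 to 0.088 for FGFR3, -0.067 to 0.179 for FGFR4, -0.23 to 0.14 for ERBB3 and -0.033 to 0.064 for RYK. With scaling by library size alone FGFR3 was at -0.004 and RYK at -0.011. The cause was not tested.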
